A study of Rattus norvegicus with 62 samples.

Results

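The genes described here are 37 rat genes of fatty acid oxidation and targets of PPARalpha, read in the livers of a 2-stage hepatocarcinogenesis study. They were chosen by name, and each is represented by the probe set that carries its symbol alone, taking the probe set with the highest mean signal where there were several. Of the 37, 35 had such a probe set, among 14217 genes in all, and 33 reached the signal needed for a test. Acaa1a and Cyp4a2 shared their probe sets with a related gene. Ppara itself never exceeded a signal of 96.9 on any array, Acot1 never exceeded 40.8, and both stayed under the minimum signal of 100. By role the list held the receptor (1 gene), uptake, binding and activation (3), the carnitine shuttle (4), mitochondrial beta-oxidation (15), peroxisomal genes (5), Cyp4a enzymes (3), thioesterases (2) and secreted or regulatory targets (4).

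Liver RNA of male Crj:CD(SD)IGS rats was hybridised to 62 Affymetrix arrays, 1 array per animal and week. Per the labels, rats first received an initiator, or its vehicle methylcellulose (MC), for 1 or 2 weeks and then went without for 2 weeks. The promoter phenobarbital (PB), a barbiturate that induces drug-metabolising enzymes, was then given at 500 ppm in the drinking water for 6 weeks. A partial hepatectomy after 1 week of promotion gave the sample called 5w, and the end of the study gave the sample called 10w, from the same animals. The MC/water rats had neither initiator nor phenobarbital (n = 4), and the MC/PB rats had phenobarbital alone (n = 4). The other 5 treatments had phenobarbital after diethylnitrosamine at a labelled dose of 3 (DEN3/PB, n = 5) or 30 (DEN30/PB, n = 4), thioacetamide at 45 (TAA/PB, n = 5), methapyrilene at 100 (MP/PB, n = 5) or acetaminophen at 1000 (APAP/PB, n = 4), all in the labels' unit mpk. Every animal, MC/water included, had undergone partial hepatectomy before the 10w sample, and the labels do not say which initiators were given for 1 week and which for 2.

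PPARalpha is a nuclear receptor that fatty acids and fibrate drugs activate, and it pairs with RXR on direct repeats of a hexamer in the DNA near its target genes. In hepatocytes its targets take up fatty acids, activate them to acyl-CoA, carry long chains into mitochondria through the carnitine shuttle, and break them down by beta-oxidation. Peroxisomes shorten very long chains, Cyp4a enzymes hydroxylate the far end of the chain, and secreted or regulatory targets set fuel use in other tissues or at pyruvate dehydrogenase.

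Promoter sequences from RefSeq (build GRCr8) were found for 31 of the 37 genes, in windows of 300 bases that run from 250 before the start site to 50 after it. They were searched on both strands for the hexamer AGGTCA and for a direct repeat of it with 1 base between the copies, allowing up to 2 mismatches in the 12 fixed bases. The repeat was present in 6 of 31 member promoters (19.4%) and in 1263 of 33469 promoters in all (3.77%), and the single hexamer, which overlaps some of the repeats, in 8 of 31 (25.8%) and 5415 of 33469 (16.2%). No member held an exact repeat, which 18 promoters in all did. The matches in the 6 members follow because they are the closest to the receptor's known element, with the matched bases in capitals, each in the gene's own direction. A match describes the letters in the window and does not show that the receptor binds there.

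Fabp1 (chr4:104749239-104749298, plus strand; 1 mismatch, on the opposite strand): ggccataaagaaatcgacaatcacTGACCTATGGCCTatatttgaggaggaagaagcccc

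Acadvl (chr10:55236706-55236765, minus strand; 1 mismatch): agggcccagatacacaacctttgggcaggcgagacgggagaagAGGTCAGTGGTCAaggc

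Crat (chr3:34087287-34087346, minus strand; 2 mismatches): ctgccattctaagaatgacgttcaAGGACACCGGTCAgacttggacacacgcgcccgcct

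Echs1 (chr1:204333626-204333685, minus strand; 2 mismatches, on the opposite strand): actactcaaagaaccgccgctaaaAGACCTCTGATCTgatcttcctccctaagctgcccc

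Etfa (chr8:64788084-64788143, minus strand; 2 mismatches, on the opposite strand): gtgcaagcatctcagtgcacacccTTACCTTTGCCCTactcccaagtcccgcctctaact

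Slc25a20 (chr8:118243588-118243600, plus strand; 2 mismatches, downstream of the start): AGGTGAAAGGTCG

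None of these 6 genes passed the test in the 20 comparisons described below, except Acadvl in 1 fit that blocks by animal. Of the members that passed, Cd36, Cpt1a, Cyp4a8 and Hadh held neither the hexamer nor the repeat in the window, and the 250 bases before the start sites of Cd36, Cpt1a and Cyp4a8 are given because the main results turn on these genes. Cyp4a1 and Vnn1 had no entry.

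Cd36 (chr4:18246332-18246581, plus strand): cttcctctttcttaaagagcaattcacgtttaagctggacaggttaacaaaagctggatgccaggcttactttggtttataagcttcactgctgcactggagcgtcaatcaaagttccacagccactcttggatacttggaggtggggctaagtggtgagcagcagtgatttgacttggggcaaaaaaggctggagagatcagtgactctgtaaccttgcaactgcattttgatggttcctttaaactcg

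Cpt1a (chr1:209995910-209996159, plus strand): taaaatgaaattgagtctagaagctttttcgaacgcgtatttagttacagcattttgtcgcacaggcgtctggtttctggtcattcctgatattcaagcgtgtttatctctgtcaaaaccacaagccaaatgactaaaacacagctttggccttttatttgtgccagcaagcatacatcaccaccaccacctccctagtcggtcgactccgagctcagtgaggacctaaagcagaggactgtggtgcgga

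Cyp4a8 (chr5:133970227-133970476, minus strand): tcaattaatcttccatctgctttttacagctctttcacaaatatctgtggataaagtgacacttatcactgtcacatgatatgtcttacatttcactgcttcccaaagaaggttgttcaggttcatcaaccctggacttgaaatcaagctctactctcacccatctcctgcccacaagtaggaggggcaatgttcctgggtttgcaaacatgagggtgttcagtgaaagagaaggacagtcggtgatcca

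Signals are linear MAS5 intensities as deposited, and differences are on the log2(signal + 25) scale, which understates the difference of dim genes. Each comparison was a contrast in limma, and a gene was called at a Benjamini-Hochberg adjusted p under 0.05 over all genes tested. Counts at an unadjusted p under 0.05 are given without the share of all genes at that threshold. They are a description and no result about the members or the other lists. The share of all genes whose arrays lie apart between 2 groups is not given either. A lack of overlap in a gene that was not called is likewise a description. Levels are compared between groups of arrays for 1 probe set, never between probe sets. The scaled arrays had medians of 99.3 to 126 with 49.9% to 54.8% of probe sets at or above 100. All 7 of 8 hepatocyte markers with a probe set were at or above 100 on all 62 arrays (Alb 39383 to 82817). Of the adipocyte genes, Adipoq and Lep were at or above 100 on 0 arrays, Plin1 on 2, Fabp4 on 22 and Cfd on 62. The arrays fell into 2 sets along the first component of the within-group residuals, which held 11.9% of that variation, against 5.01% on the second. Each group had 2 or 3 arrays in each set, and both weeks of an animal lay in the same set. The labels name no such batch, so values within each set are given beside the main results. In whole liver, fewer cells of a type and less RNA per cell cannot be told apart.

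The members differed more in how much they varied than in whether they passed a test. The enzymes of mitochondrial beta-oxidation had tight signals, with a median within-group SD of 0.16 on the log2 scale (0.08 for Acadvl to 0.26 for Eci1) over the 15 genes, against 0.24 for the median of all genes. Acadvl, the very long chain acyl-CoA dehydrogenase, varied less within groups than all but 0.119% of genes, and Etfa, a subunit of the electron transfer flavoprotein, less than all but 0.532%. The 4 secreted or regulatory targets had a median within-group SD of 0.50 (0.42 to 0.78). Mean signals ran from 162 (Fgf21) to 2550 (Pdk4) in these 4, and from 2460 (Acads) to 17397 (Acadm) in the 15. The spreads were not matched for signal, here or against all genes. The part of signal level in them was not tested. Angptl4, a secreted inhibitor of lipoprotein lipase, varied more than 99.1% of genes, and Cyp4a8, a fatty acid hydroxylase, more than 97.8%. Group means spanned 3.30 log2 units for Cyp4a8, from 5w MC/water to 10w APAP/PB, 2.49 for Angptl4, 1.86 for Vnn1 and 1.75 for Cd36, but 0.20 for Etfa.

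**Figure D1:**
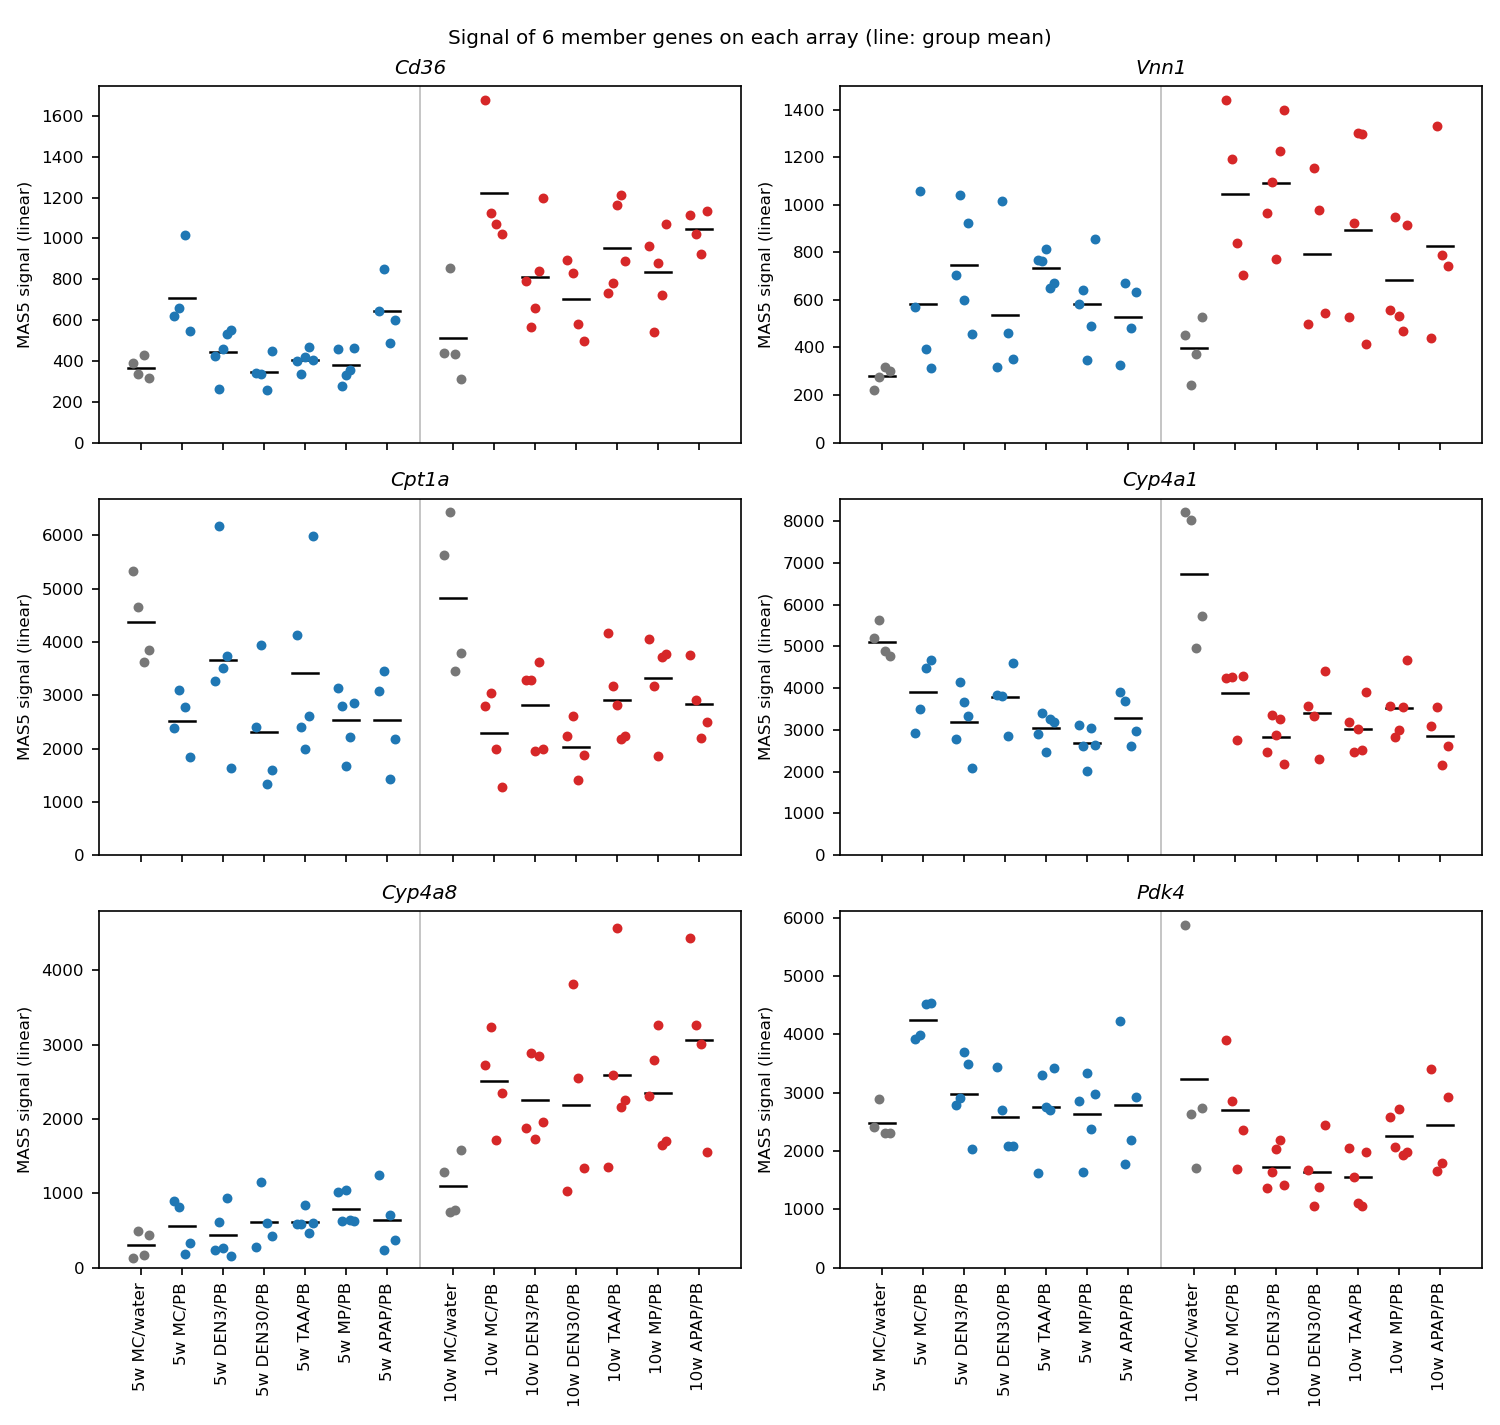
Linear MAS5 signal of Cd36, Vnn1, Cpt1a, Cyp4a1, Cyp4a8 and Pdk4 on each of 62 arrays (points) by group along the x axis, with the group mean as a short line; grey is MC/water, blue the other 5w groups and red the other 10w groups. Cyp4a8 and Cd36 each have a higher mean at 10w than at 5w in every treatment, MC/water included. In MC/water the Cd36 signals of the weeks overlap, and the Cd36 rise was not shown to differ with phenobarbital. Cpt1a and Cyp4a1 lie lower in MC/PB than in MC/water at both weeks.

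The first comparison asked what phenobarbital alone did, by setting MC/PB against MC/water in rats that had received no initiator. After 1 week of phenobarbital 1 of 33 members passed the test, against 1.25% of the 10488 genes tested, and after 6 weeks 4 of 33 passed, against 2.26% of 10538. Cd36 was higher at both weeks, Vnn1 was higher after 6 weeks, and Cpt1a and Cyp4a1 were lower after 6 weeks. The enzymes of mitochondrial and peroxisomal beta-oxidation did not pass at either week. The 8 arrays of each week are from different animals, and the labels do not tie animals of different treatments together.

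Cd36, the fatty acid translocase of the cell surface, had 5w signals of 392, 333, 427 and 315 in MC/water and 621, 659, 1016 and 545 in MC/PB. At 10w its signals were 441, 855, 433 and 311 in MC/water and 1676, 1125, 1069 and 1023 in MC/PB. At both weeks every MC/PB array lay above every MC/water array, and 1 MC/water liver at 10w, replicate 2, reached 855. The difference was 0.88 ± 0.20 (SE, n = 4 and 4, limma adjusted p = 0.0214) after 1 week and 1.29 ± 0.25 (limma adjusted p = 0.00277) after 6 weeks. Intervals here and below run 2 SE to each side of the difference, for Cd36 0.47 to 1.29 and 0.79 to 1.79. Within array sets 1 and 2 the difference was 0.92 and 0.84 at 5w and 1.56 and 1.01 at 10w. The 10w call was kept when any 1 of the 8 arrays was left out, with adjusted p up to 0.0219 in limma. The 5w call was lost in limma without MC/PB replicate 3 (adjusted p = 0.112), MC/water replicate 2 (0.0625) or MC/water replicate 4 (0.0919), and in a fit of these 2 groups alone (0.06). A probe set shared by Cd36 and Cd36l1 gave 0.72 and 1.10 for the same comparisons.

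The other 2 members of this role changed little in signal. Fabp1, the liver fatty acid binding protein, differed by -0.01 ± 0.07 at 5w and -0.03 ± 0.11 at 10w. Its signals, 47111 to 74472, lay near the top of the range, where the highest of any probe set was 82817. Whether differences can be read fully at that level was not tested. Acsl1, which joins fatty acids to coenzyme A, differed by -0.03 ± 0.07 and -0.09 ± 0.12. Neither passed in limma, and over all 14 groups the means of these 2 genes spanned 0.28 and 0.29 log2 units.

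Cpt1a, the carnitine palmitoyltransferase of the outer mitochondrial membrane that controls entry of long chains, was lower with phenobarbital. Its 5w signals were 5337, 4648, 3631 and 3855 in MC/water and 2379.5, 3094, 2789.8 and 1835 in MC/PB. Its 10w signals were 5631, 6435, 3465 and 3795 in MC/water and 2808, 3045, 1996 and 1288 in MC/PB. All MC/PB arrays were below all MC/water arrays at each week. The difference was -0.79 ± 0.35 at 5w, which did not pass (limma adjusted p = 0.371), and -1.10 ± 0.28 at 10w (-1.66 to -0.54; limma adjusted p = 0.0296). A second Cpt1a probe set gave -0.61 and -0.80, and the 10w difference was -0.89 in set 1 and -1.31 in set 2. In limma the 10w call was lost without MC/PB replicate 3 (adjusted p = 0.0701) or 4 (0.125), or without MC/water replicate 1 (0.0884) or 2 (0.115), and in a fit of these 2 groups alone (0.0629).

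The rest of the carnitine shuttle did not pass. Slc25a20, the carrier that moves acylcarnitine across the inner membrane, differed by 0.07 ± 0.14 and -0.03 ± 0.09, and Cpt2, which releases acyl-CoA inside, by -0.05 ± 0.13 and 0.02 ± 0.12. Crat, the carnitine acetyltransferase, had 5w signals of 749.6, 267, 532 and 417 in MC/water and 234, 386, 232 and 152 in MC/PB, which overlapped. Its difference was -0.88 ± 0.31 at 5w (limma adjusted p = 0.207) and -0.27 ± 0.35 at 10w.

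None of the 15 mitochondrial beta-oxidation genes, Eci2 counted among them, passed at 5w or 10w in limma. At an unadjusted p under 0.05 there were 0 of 15 at 5w and 4 of 15 at 10w, without the share of all genes beside them. At 5w, 6 were above zero and 9 below, between -0.14 for Eci2 and 0.08 for Acadl. At 10w, 2 were above zero and 13 below, with a median of -0.16 against -0.01 over all genes tested, between -0.34 for Etfb and 0.06 for Acads. Etfb, the beta subunit of the electron transfer flavoprotein, had 10w signals of 11570.2, 14353, 13251 and 12957 in MC/water and 8645, 9956, 11549.9 and 11060.0 in MC/PB. These did not overlap, with a difference of -0.34 ± 0.11 (limma adjusted p = 0.111; 0.0207 after quantile normalization, where it passed). Eci2 and Acadvl were also lower in every MC/PB array than in any MC/water array at 10w, with differences of -0.25 ± 0.08 and -0.16 ± 0.07, and did not pass. The share of all genes without overlap at 10w is not given, so these separations are a description.

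Acadm, the medium chain acyl-CoA dehydrogenase, had 10w signals of 24211, 19446, 19971 and 19872 in MC/water and 16694, 17769.6, 20236 and 16936 in MC/PB. The 2 groups overlapped, and the difference was -0.22 ± 0.10 (limma adjusted p = 0.301). Hadha, the alpha subunit of the trifunctional protein, had 10w signals of 5987, 5156, 5267 and 4632 and 4971, 4578, 4677 and 4823, a difference of -0.14 ± 0.10. The intervals of these differences were -0.42 to -0.02 for Acadm and -0.33 to 0.05 for Hadha.

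Of the peroxisomal genes, which by the roles used here leave out Eci2, 4 were tested and 0 passed at either week in limma. At an unadjusted p under 0.05 there were 0 of 4, without the share of all genes. Ehhadh, the bifunctional enzyme of the classical peroxisomal pathway, had 10w signals of 10834, 7711, 7352 and 5799 in MC/water and 8654, 5489, 6188 and 6875 in MC/PB. The groups overlapped, with differences of -0.20 ± 0.16 at 5w and -0.20 ± 0.20 at 10w. Ech1, a dienoyl-CoA isomerase, differed by 0.00 ± 0.18 and -0.38 ± 0.22, and Hsd17b4, the other bifunctional enzyme, by 0.03 ± 0.09 and -0.02 ± 0.08. Pex11a, which promotes peroxisome division, differed by 0.10 ± 0.17 and -0.14 ± 0.15. The probe set shared by Acaa1a, a peroxisomal thiolase, and Acaa1b had group means between 9873 and 11198 over all 14 groups.

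Of the Cyp4a genes, 1 of 2 tested passed at 10w and 0 at 5w. Cyp4a1, a fatty acid omega-hydroxylase long used as a marker of PPARalpha activation, had 5w signals of 5199.9, 5624, 4880.0 and 4761 in MC/water and 2933, 3508, 4493 and 4668 in MC/PB. At 10w they were 8228, 8021, 4966 and 5716 in MC/water and 4246, 4263, 2760.1 and 4283 in MC/PB. Every MC/PB array was below every MC/water array at both weeks, although MC/water replicates 1 and 2 at 10w stood well above the other two. The difference was -0.41 ± 0.18 at 5w (limma adjusted p = 0.371) and -0.78 ± 0.20 at 10w (-1.19 to -0.37; limma adjusted p = 0.0356), or -0.90 within set 1 and -0.66 within set 2. In limma the 10w call was lost without MC/PB replicate 1 (adjusted p = 0.0553), 2 (0.0546) or 3 (0.139), or without MC/water replicate 1 (0.124) or 2 (0.125), and in a fit of these 2 groups alone (0.0616).

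Cyp4a8, another member of the family, had differences above zero that did not pass, and the difference between the genes was not tested. Its 10w signals were 1289, 747, 771 and 1587 in MC/water and 2726, 3237, 1713 and 2349.7 in MC/PB, which did not overlap. The difference was 0.73 ± 0.51 at 5w and 1.21 ± 0.36 at 10w, and neither passed (limma adjusted p = 0.687 and 0.0704), although the 10w value did in a fit of these 2 groups alone (0.0352). The probe set shared by Cyp4a2 and Cyp4a3 differed by 0.46 ± 0.26 at 5w and -0.10 at 10w. These genes have closely similar sequences, so the probe sets may not keep them fully apart, and the extent of that was not tested.

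Vnn1, the pantetheinase vanin 1 and a known PPARalpha target, had 5w signals of 220.0, 276, 319 and 303 in MC/water and 572, 1058, 394 and 315 in MC/PB, where 1 MC/PB array fell just under the highest MC/water array. Its 10w signals were 454, 243, 373 and 529 in MC/water and 1438, 1192, 840.4 and 706 in MC/PB, which did not overlap. The difference was 0.87 ± 0.32 at 5w (limma adjusted p = 0.241) and 1.33 ± 0.35 at 10w (0.64 to 2.02; limma adjusted p = 0.0351), with 1.37 in set 1 and 1.29 in set 2. In limma the 10w call was lost without MC/PB replicate 1 (adjusted p = 0.131) or 2 (0.104), or without MC/water replicate 1 (0.0563), 2 (0.13) or 3 (0.0807).

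Pdk4, the kinase that switches off pyruvate dehydrogenase and so spares glucose, had 5w signals of 2411, 2898, 2312 and 2302 in MC/water and 3927, 3998, 4516 and 4547 in MC/PB. All 4 MC/PB arrays were above all MC/water arrays at 5w, a difference of 0.77 ± 0.24 that did not pass (limma adjusted p = 0.124). In a fit of these 2 groups alone it did pass (limma adjusted p = 0.00622), the fit in which Cd36 at 5w did not (0.06). A second Pdk4 probe set gave 0.29. At 10w the signals were 5873, 2634, 1702 and 2735 and 3896, 2864, 1701 and 2363, which overlapped, with a difference of -0.17 ± 0.30.

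Angptl4 had 5w signals of 2131, 6973, 2861 and 1281 in MC/water, a wide spread, and 3338, 2825, 2947 and 2921 in MC/PB. At 10w the signals were 5227, 4698, 5176 and 4925 in MC/water and 3035, 1769, 2454 and 2179.7 in MC/PB, and the groups were apart. The difference of -1.10 ± 0.43 at 10w did not pass (limma adjusted p = 0.218), and did in a fit of these 2 groups alone (0.00234), which lost Cpt1a and Cyp4a1. Fgf21, a liver hormone of fasting, had 5w signals of 259, 242, 249 and 261 in MC/water and 116, 155, 154 and 198 in MC/PB, a difference of -0.64 ± 0.31 (limma adjusted p = 0.449). It reached a signal of 100 on 51 of 62 arrays. Acot2, a mitochondrial thioesterase that frees fatty acids from coenzyme A, differed by -0.12 ± 0.21 and -0.40 ± 0.17.

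**Figure D2:**
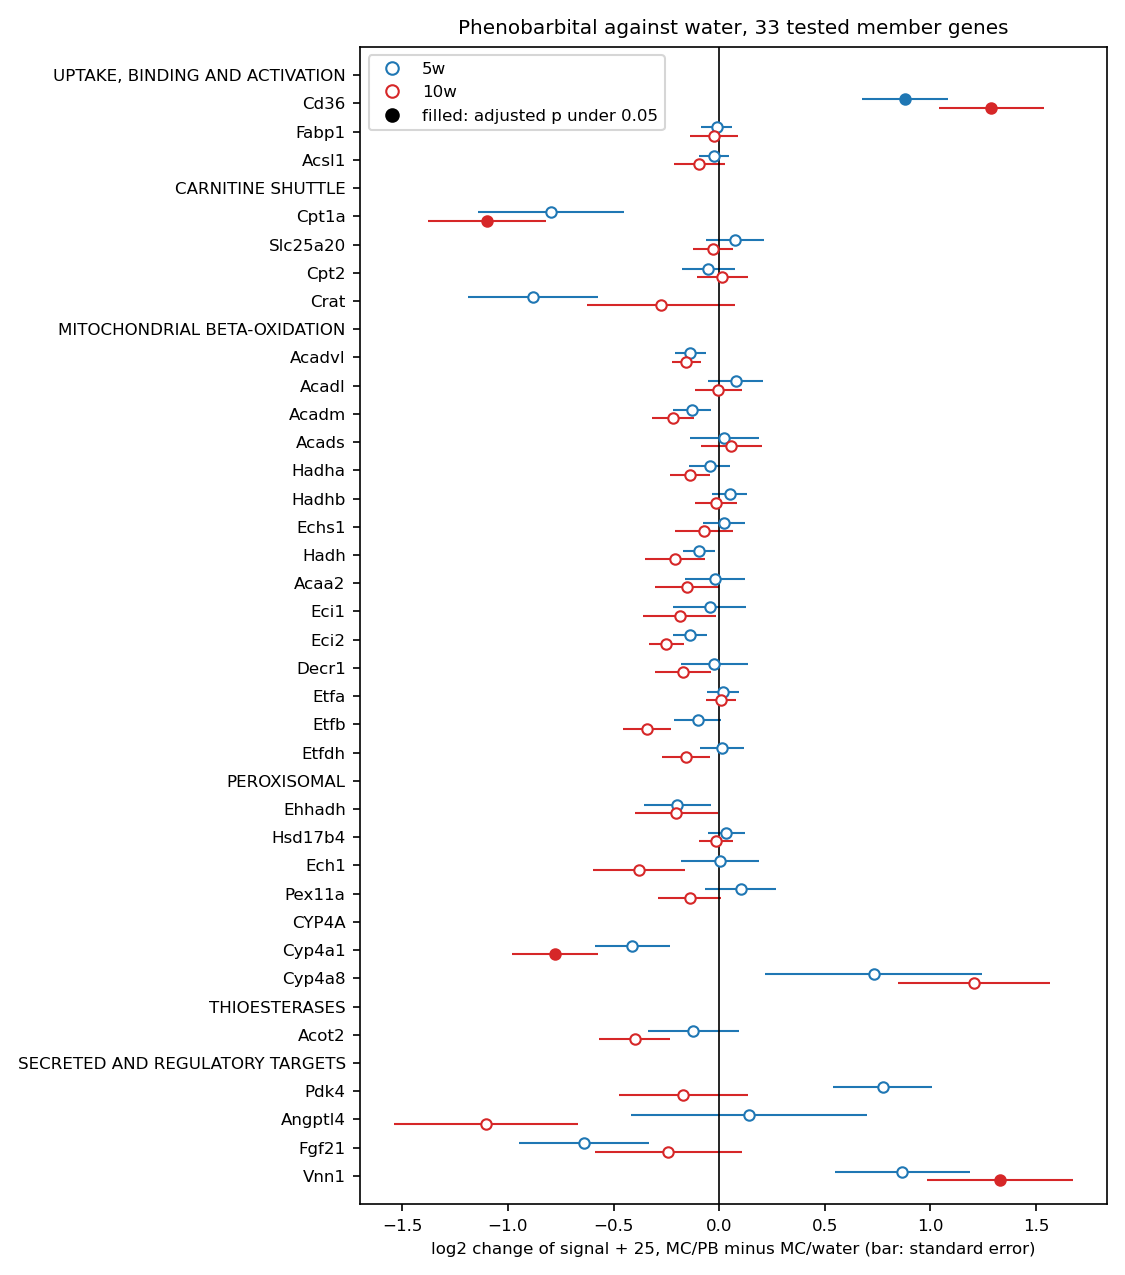
Change with phenobarbital alone (MC/PB minus MC/water, log2 scale on the x axis, bars are SE, n = 4 and 4) for the 33 tested members ordered by role on the y axis, blue at 5w and red at 10w, filled where limma's adjusted p was under 0.05. Cd36 and Vnn1 lie to the right and Cpt1a and Cyp4a1 to the left, while the mitochondrial genes lie between -0.34 and 0.08.

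Over all 33 tested members, 15 were above zero and 18 below at 5w (median -0.02), and 6 above and 27 below at 10w (median -0.16, all genes -0.01). Direct comparison of the effect after 6 weeks with that after 1 week gave 0 of 33 members called in limma, and 0 of all 10903 genes (percent called 0). At an unadjusted p under 0.05 there was 1 of the 33, without the share of all genes beside it. Pdk4 differed by -0.94 ± 0.40 (limma unadjusted p = 0.0221), Cpt1a by -0.31 ± 0.46, Cyp4a1 by -0.37 ± 0.28, Vnn1 by 0.46 ± 0.49 and Cd36 by 0.41 ± 0.33. These errors ignore that both weeks came from the same animals. In a limma fit that blocks by animal, 0 members were called, against 0.0642% of all genes. Its SE was 0.34 for Pdk4, 0.36 for Cpt1a, 0.22 for Cyp4a1, 0.39 for Vnn1 and 0.27 for Cd36. A gene called at 10w alone was therefore not shown to respond differently at 5w.

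Markers of 1 other cell type moved with phenobarbital. The summed signal of 4 of 5 biliary markers, mostly Epcam, was 1074 to 1539 in MC/PB against 783 to 991 in MC/water at 5w, and 1343 to 2182 against 665 to 1153 at 10w. Krt7 was at or above 100 on 0 arrays, and the part of these markers in the results was not tested. Kupffer cell markers, 5 of 7 measured, summed to 9345 to 10785 in MC/PB against 9824 to 13091 in MC/water at 5w, and to 7913 to 12281 against 10853 to 14462 at 10w, ranges that overlap.

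The wider pathway was read from lists of 77 other genes, of which 64 were tested. In limma 0 passed at 5w (3 had an unadjusted p under 0.05), and 2 passed at 10w, against 10 at an unadjusted p under 0.05. These 2 are 3.12% of the 64, near the 2.26% called over all genes, and 0 at 5w stands beside 1.25%, so neither count is a result about the list. Plin2, which coats lipid droplets, fell by 0.71 ± 0.15 (limma adjusted p = 0.00498), and Me1, the malic enzyme that supplies NADPH, rose by 1.28 ± 0.31 (limma adjusted p = 0.0231). Both are among 25 tested targets of PPARalpha outside the member list. None of 2 tested ketone body genes, 26 tested peroxisomal genes or 11 tested partners and coregulators of the receptor passed in limma. At 10w 0, 6 and 0 of them had an unadjusted p under 0.05. The share of all genes at the unadjusted threshold is not given, so no excess can be read from any of these counts.

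The next comparisons set each initiator group against MC/PB at the same week, all on phenobarbital, and all 5 at a week share the same 4 MC/PB arrays. At 5w the members called in limma were 0 of 33 for DEN3 (background 0.0381%), 1 for DEN30 (0.114%), 0 for TAA (0.0191%), 0 for MP (0.0572%) and 0 for APAP (0%). At 10w they were 0 of 33 for DEN3 (0.019%), DEN30 (0.0285%), TAA (0.00949%), MP (0.0854%) and APAP (0.0664%). The members with an unadjusted p under 0.05 numbered 4, 6, 4, 5 and 2 at 5w and 3, 7, 1, 3 and 7 at 10w, in that order. The share of all genes at this threshold is not given, so an excess cannot be read from these counts. Few genes of any kind were called against MC/PB, so the absence of calls is no result about these members.

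Cd36, lower at 5w in DEN30/PB, was the 1 member called in the initiator comparisons. Its 5w signals were 339, 334, 258 and 450.4 in DEN30/PB, all below the MC/PB range of 545 to 1016 given above. The difference was -0.97 ± 0.20 (limma adjusted p = 0.0416), or -1.35 within set 1 and -0.59 within set 2. The call was lost in limma without any of 7 of the 8 arrays, all but DEN30/PB replicate 4 (adjusted p up to 0.26). The same replicate numbers correlated above 0.1 in all 4 pairs of this comparison, and with the number as a block the adjusted p was 0.0543. In a fit of these 2 groups alone it was 0.202. The summed signal of 5 of 6 lymphocyte markers, mostly Ptprc, was 779 to 1024 in DEN30/PB at 5w against 633 to 763 in MC/PB, without overlap. Cd3e was at or above 100 on 12 of 62 arrays, Cd8a on 3, and Cd3d and Cd79b on 1 each. The sum is therefore a weak measure of lymphocytes, and its part in the result was not tested.

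The other initiators gave Cd36 signals at 5w of 423, 260.3, 458, 533 and 549 in DEN3/PB, 398, 335, 419, 469.9 and 403 in TAA/PB, 458, 279, 329, 358 and 465 in MP/PB and 645, 851, 489 and 599 in APAP/PB. TAA/PB (-0.74 ± 0.19, limma adjusted p = 0.264) and MP/PB (-0.85 ± 0.19, 0.0861) lay below all MC/PB arrays without passing. DEN3/PB had a difference of -0.65 ± 0.19 and overlapped MC/PB by 1 array. APAP/PB, at -0.12 ± 0.20, overlapped it widely. In MP/PB at 5w the summed markers of Kupffer cells (7197 to 9013 against 9345 to 10785 in MC/PB) were lower without overlap. So were those of lymphocytes, mostly Ptprc (480.1 to 624 against 633 to 763). Those of biliary cells were higher without overlap (1739 to 2129 against 1074 to 1539). In APAP/PB the adipocyte sum, 5 of 6 markers and mostly Cfd, was lower (497 to 578 against 583 to 714). The part of these sums in the results was not tested. No marker sum of an initiated group stood apart from MC/PB at 10w. At 10w the differences were -0.59, -0.79, -0.35, -0.55 and -0.19 for DEN3, DEN30, TAA, MP and APAP, and none passed. In DEN30/PB the 10w signals, 895, 830.5, 579.6 and 499, again lay below all 4 MC/PB arrays.

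Pdk4 was lower than MC/PB in each initiated group at 5w, by values of -0.53 for DEN3, -0.74 for DEN30, -0.66 for TAA, -0.72 for MP and -0.68 for APAP, none past the threshold. Its 5w signals were 2788, 2908, 3701, 3489.8 and 2043 in DEN3/PB and 3449, 2703, 2089.8 and 2088 in DEN30/PB, overlapping the MC/water signals of 2302 to 2898. Since the 5 contrasts share the 4 high MC/PB arrays, their common sign is not repeated evidence. At 10w the values were -0.60, -0.72, -0.78, -0.21 and -0.15.

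Cyp4a1 was below MC/PB in all 5 initiated groups at each week, between -0.52 (MP) and -0.04 (DEN30) at 5w and between -0.45 (DEN3) and -0.14 (MP) at 10w, and none passed. The signals of all rats on phenobarbital lay between 2009 and 4681 across both weeks, below the lowest MC/water array of either week at 4761. Cpt1a at 10w was 0.33, -0.13, 0.38, 0.56 and 0.36 from MC/PB for DEN3, DEN30, TAA, MP and APAP.

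The Cpt1a signals of the initiated groups spread widely. At 5w they were 3277, 6182, 3505, 3739.6 and 1639.8 in DEN3/PB, 2397, 3939.6, 1335 and 1599 in DEN30/PB, 4123, 2407, 1996, 2614 and 5985 in TAA/PB, 3133, 2792, 1679.8, 2211 and 2864 in MP/PB and 3088, 3455, 1426 and 2189 in APAP/PB. Each of these groups overlapped MC/PB, with differences from it between -0.22 ± 0.35 (DEN30) and 0.44 ± 0.33 (DEN3). At 10w they were 3283, 3283, 1959, 3625 and 1987 in DEN3/PB, 2237, 2607, 1406 and 1880.3 in DEN30/PB, 4174, 3177, 2816, 2184 and 2242 in TAA/PB, 4056, 3175, 1867, 3723 and 3775 in MP/PB and 3756, 2920.0, 2194 and 2498 in APAP/PB. The group means of the rats on phenobarbital lay between 2033 and 3319 at 10w, below the MC/water mean of 4831 ± 1432 (SD, n = 4).

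Vnn1 overlapped MC/PB in the initiated groups at 10w. Its 10w signals were 964, 1097, 771, 1226 and 1398 in DEN3/PB, 500.4, 1153, 978 and 545 in DEN30/PB, 527, 923, 1303, 1299 and 416 in TAA/PB, 558, 947, 532, 470.4 and 915 in MP/PB and 441, 1329.7, 788 and 742 in APAP/PB. The differences from MC/PB were 0.09 ± 0.33, -0.42 ± 0.35, -0.30 ± 0.33, -0.60 ± 0.33 and -0.38 ± 0.35 in that order. At 5w the differences were 0.42, -0.13, 0.46, 0.08 and -0.04, and no value of either week passed in limma.

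Angptl4 had 10w signals of 1184, 799.9, 489 and 1225 in APAP/PB and 1360.1, 801, 649 and 2204 in DEN30/PB. The APAP/PB arrays were all below the MC/PB arrays, with a difference of -1.39 ± 0.43 that did not pass (limma adjusted p = 0.481). DEN30/PB had -1.03 ± 0.43 at 10w and -1.16 ± 0.56 at 5w, where its signals were 2015, 3363, 633 and 720.5.

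The mitochondrial genes shifted little in these comparisons. In DEN30/PB 13 of 15 were below MC/PB at 5w and 14 of 15 at 10w, with medians of -0.12 and -0.12 (all genes 0.01 and 0.02). In APAP/PB 13 of 15 were below at 10w (median -0.10), whereas in TAA/PB 11 of 15 were above at each week (median 0.07 at both). Decr1, the mitochondrial dienoyl-CoA reductase, had 10w signals of 6605, 6673, 5515 and 6412 in DEN30/PB and 9201, 7335, 8488 and 7813 in MC/PB, which did not overlap. Its difference of -0.38 ± 0.13 did not pass (limma adjusted p = 0.745). Eci1, an enoyl-CoA isomerase, was the lowest of the 15 in APAP/PB at 10w (-0.54 ± 0.17, limma adjusted p = 0.491) and in DEN30/PB at 10w (-0.42 ± 0.17). Over the 10 comparisons the medians of the 4 tested peroxisomal genes lay at or below zero, and the lowest, -0.22, was in DEN30/PB at 10w, where Ehhadh was at -0.33 ± 0.20.

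Counted over all 33 tested members, DEN30/PB had 7 above and 26 below MC/PB at 5w (median -0.12) and 2 above and 31 below at 10w (median -0.14). APAP/PB had 5 above and 28 below at 10w (median -0.13). The other comparisons were more evenly divided, from 9 above and 24 below for MP at 5w to 20 above and 13 below for TAA at 5w, with medians between -0.06 and 0.03. The medians over all genes tested were between 0.00 and 0.02 in size, and the members' differences in 1 comparison share 1 set of arrays, so these counts are a description.

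**Figure D3:**
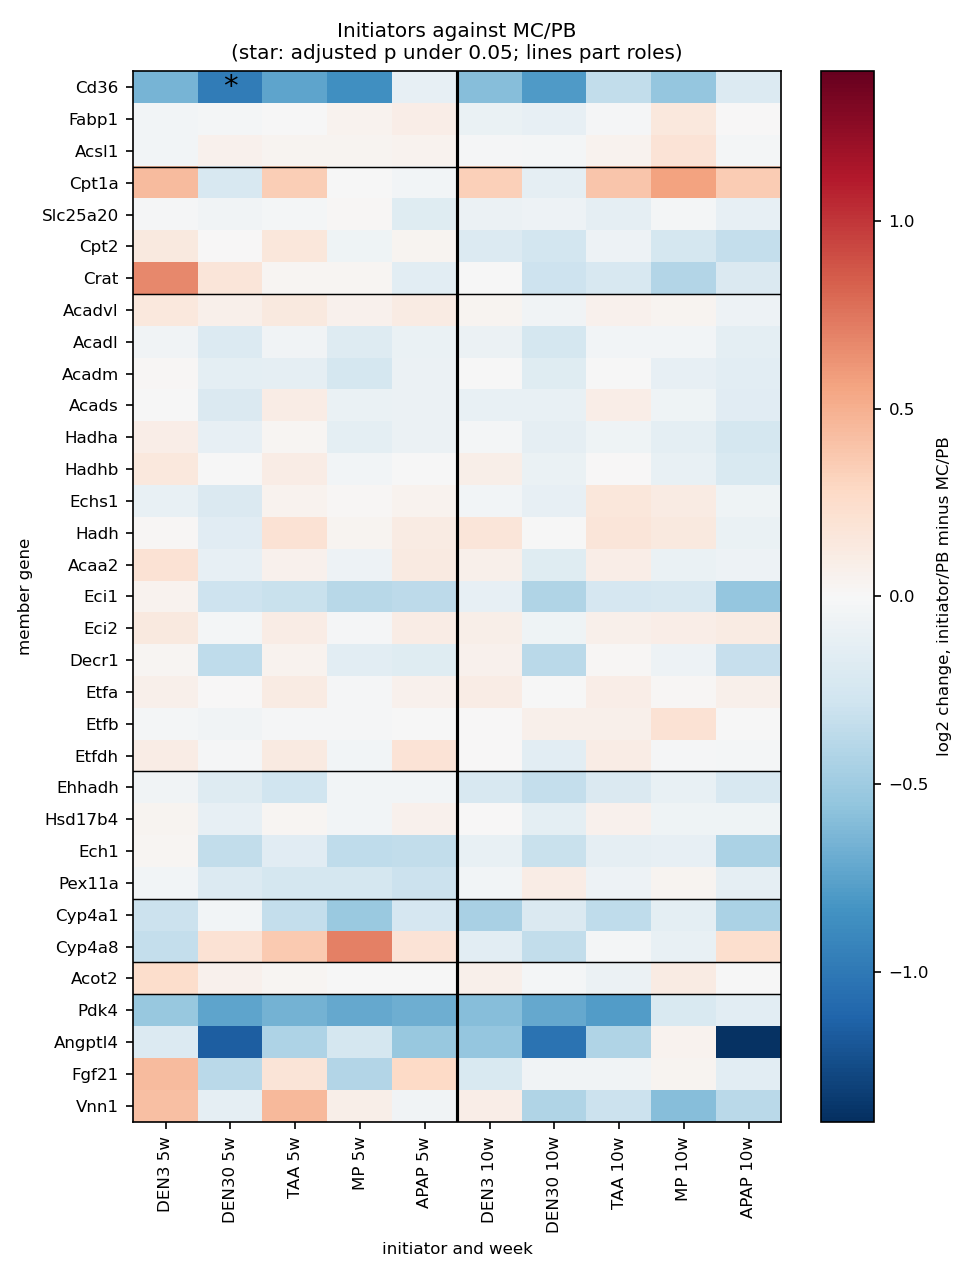
Log2 change of each initiator group from MC/PB (colour, red higher and blue lower) for the 33 tested members in rows by role and the 10 initiator comparisons in columns; a star marks limma's adjusted p under 0.05. The 1 star is Cd36 in DEN30/PB at 5w, and the rows of mitochondrial genes are pale.

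The last comparisons set 10w against 5w within each treatment, over the regrowth after hepatectomy and, where it was given, 5 more weeks of phenobarbital. In limma the members called were 0 of 33 in MC/water (background 0.0459%), 1 in MC/PB (1.31%), 2 in DEN3/PB (2.89%), 0 in DEN30/PB (0%), 2 in TAA/PB (1.77%), 2 in MP/PB (1.34%) and 2 in APAP/PB (1.47%). At an unadjusted p under 0.05 the 2 treatments without a called member had 5 (MC/water) and 4 (DEN30/PB), again without the share of all genes. The calls were rises of Cyp4a8 and Cd36 and 1 fall, of Hadh in APAP/PB. This fit ignores that both weeks came from the same animals, and calls below are from it unless another fit is named. With the animal as a block, 1 member was called in MC/water (1.42% of all genes) and 2 in DEN30/PB (1.46%). The block's counts for all treatments stand further below.

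Cyp4a8 had 5w signals of 131, 489.7, 177 and 442 in MC/water and 901, 820.3, 183 and 327 in MC/PB, with wide variation among livers of a group. The 10w signals of both groups, given above, began at 747 and 1713. In these 2 groups every 10w array was above every 5w array. In MC/PB the gene rose by 2.33 ± 0.46 (SE, n = 4 and 4; limma adjusted p = 0.00384). Without phenobarbital, in MC/water, the difference was 1.86 ± 0.46 (limma adjusted p = 0.0826).

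In DEN3/PB the Cyp4a8 signals were 245, 622, 267, 938 and 156 at 5w and 1883, 2881, 1726, 2844 and 1956 at 10w, a rise of 2.52 ± 0.41 (limma adjusted p = 0.000201). In DEN30/PB they were 280.4, 1158, 596 and 421 and 1025, 3821, 2553 and 1345, which overlapped, and the difference of 1.79 ± 0.46 did not pass (limma adjusted p = 0.123). In TAA/PB they were 586, 582, 841, 463 and 607 and 1355, 2590.0, 4572, 2163 and 2255, a rise of 1.94 ± 0.41 (limma adjusted p = 0.00442). DEN30/PB was the 1 treatment of 7 in which the weeks overlapped.

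In MP/PB the Cyp4a8 signals were 1018, 632, 1051, 641 and 626 at 5w and 2308, 2795, 3269, 1645 and 1709.9 at 10w, a rise of 1.52 ± 0.41 (limma adjusted p = 0.0443). In APAP/PB they were 1240.2, 238, 709 and 369 and 4432, 3269, 3003 and 1556, a rise of 2.38 ± 0.46 (limma adjusted p = 0.00189). The MP/PB call was lost without any 1 of its 10 arrays (adjusted p up to 0.131 in limma) and the MC/PB call without 5w MC/PB replicate 3 (0.0535). The calls in DEN3/PB, TAA/PB and APAP/PB were kept without any 1 array. Within sets 1 and 2 the difference was 2.32 and 2.35 in MC/PB, 2.95 and 1.87 in DEN3/PB, 1.79 and 2.04 in TAA/PB, 1.39 and 1.61 in MP/PB, and 1.93 and 2.83 in APAP/PB. A second Cyp4a8 probe set gave 1.36 to 2.16 over the 7 treatments.

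Taken animal by animal, Cyp4a8 was higher at 10w in 31 of 31 rats, by 2.04 ± 0.68 (SD) on the log2 scale, with a smallest difference of 0.58 and a largest of 3.65. With the animal as a block, which the shared livers call for, it passed in all 7 treatments (limma adjusted p = 0.00414 in MC/water, 4.18e-05 in MC/PB, 5.59e-07 in DEN3/PB, 0.00627 in DEN30/PB, 5.75e-05 in TAA/PB, 0.00236 in MP/PB and 2.29e-05 in APAP/PB). The rise with phenobarbital did not differ from that without it beyond its error. The difference was 0.48 ± 0.52 with the block (limma adjusted p = 0.894) and 0.48 ± 0.65 without the block (interval -0.83 to 1.79).

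Cd36 rose from 5w to 10w in DEN3/PB (0.83 ± 0.21, limma adjusted p = 0.0162), TAA/PB (1.17 ± 0.21, 0.000512) and MP/PB (1.08 ± 0.21, 0.00233). Its 10w signals were 791, 564, 661, 842 and 1197 in DEN3/PB, 730.3, 781, 1164, 1211 and 889.8 in TAA/PB and 965, 541, 879.7, 721 and 1072 in MP/PB, each above every 5w array of its treatment. In MC/PB, DEN30/PB and APAP/PB the 10w arrays also lay above the 5w arrays, with differences of 0.77 ± 0.23, 0.96 ± 0.23 and 0.70 ± 0.23 that did not pass (limma adjusted p = 0.0915, 0.102 and 0.123). In MC/water the weeks overlapped (0.36 ± 0.23). The DEN3/PB call was lost in limma without 10w DEN3/PB replicate 5 or 5w DEN3/PB replicate 2 (adjusted p up to 0.094), or in a fit of that treatment alone (0.0568), and the other calls were kept without any 1 array. In DEN30/PB a call was gained without 10w DEN30/PB replicate 4 (0.0418). Within sets 1 and 2 the rise was 0.82 and 0.84 in DEN3/PB, 1.13 and 1.19 in TAA/PB, and 1.19 and 1.01 in MP/PB. None of these passed within a set (limma adjusted p from 0.0653 to 0.555).

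Cd36 was higher at 10w in 30 of 31 rats, by a mean of 0.86 with a range from -0.02 to 1.42. With the animal as a block it passed in the 6 treatments with phenobarbital (limma adjusted p = 0.0102 in MC/PB, 0.000917 in DEN3/PB, 0.00622 in DEN30/PB, 7.02e-06 in TAA/PB, 4.28e-05 in MP/PB and 0.0186 in APAP/PB) and not in MC/water (0.468). The difference between MC/PB and MC/water over time was 0.41 ± 0.27 with the block (limma adjusted p = 0.739) and 0.41 ± 0.33 without it. Neither passed, so the rise was not shown to differ with phenobarbital.

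Hadh, the dehydrogenase for short chain hydroxyacyl-CoA, fell in APAP/PB. Its signals there were 14918, 16347, 15582 and 14171 at 5w and 11893, 9814, 13448 and 9069 at 10w, which did not overlap. The difference was -0.48 ± 0.11 (limma adjusted p = 0.0151), or -0.27 in set 1 and -0.69 in set 2, and the call was lost without 10w APAP/PB replicate 2 or 4 or 5w APAP/PB replicate 2 (adjusted p up to 0.106 in limma), and in a fit of this treatment alone (0.153). Over all rats Hadh was lower at 10w in 26 of 31.

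Pdk4 was lower at 10w in 26 of 31 rats, by a mean of -0.46, and passed in no treatment in the fit of all 62 arrays without the animal block. Its 10w signals were 1370.3, 1633, 2034, 2194 and 1418 in DEN3/PB and 2061, 1562, 1106, 1060.5 and 1978 in TAA/PB. With the animal as a block it passed in both (limma adjusted p = 0.0132 and 0.0106). Without the block it also passed in DEN3/PB when fitted on that treatment alone (0.0303), and in TAA/PB without 10w TAA/PB replicate 1 (0.0372) or 5w TAA/PB replicate 1 (0.0342), as Hadh did without the former (0.0209). Vnn1 was higher in 26 of 31 rats (mean 0.48) and passed with the block in MC/PB (limma adjusted p = 0.0425). Acsl1 was lower in 27 of 31 (mean -0.18), and Etfa higher in 27 of 31 by a mean of 0.09.

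**Figure D4:**
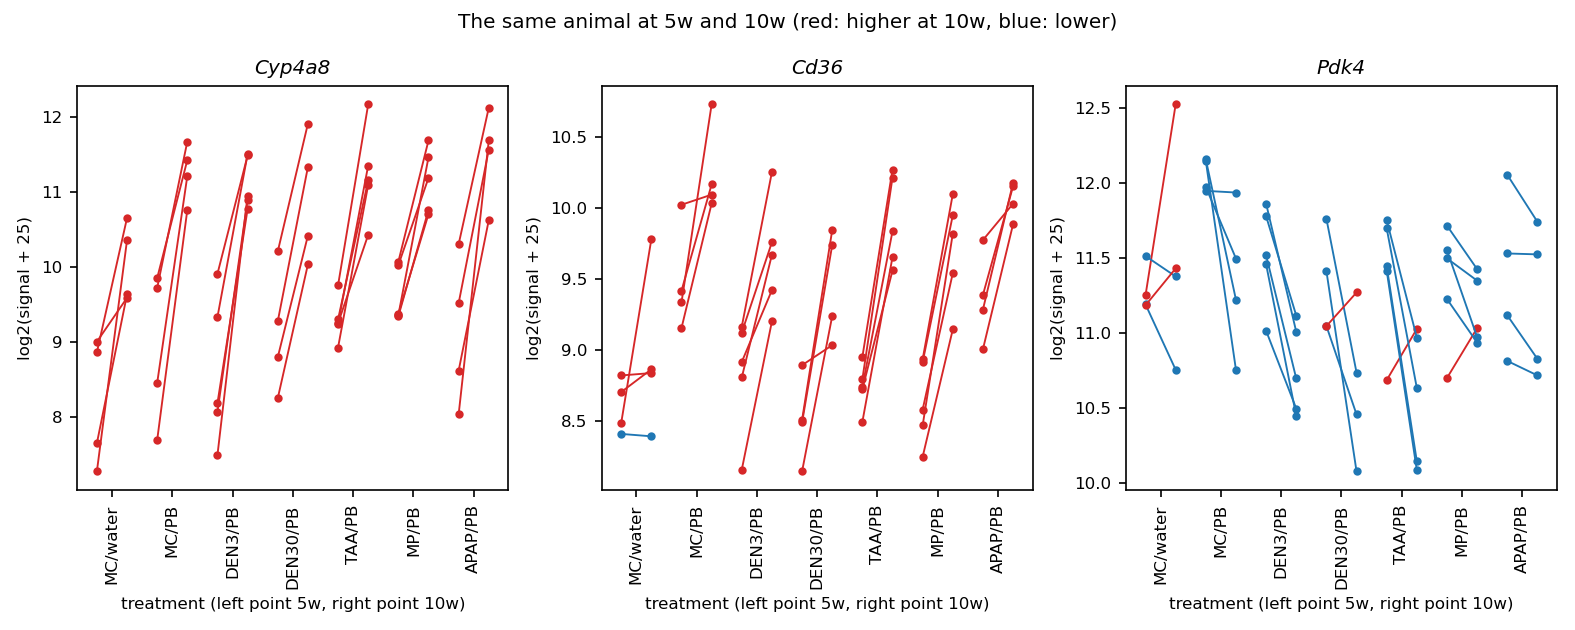
Each rat's change from 5w to 10w for Cyp4a8, Cd36 and Pdk4, as log2(signal + 25) on the y axis by treatment on the x axis; a line joins the 2 samples of a rat, red where 10w is higher and blue where it is lower. All 31 Cyp4a8 lines and 30 of 31 Cd36 lines are red, and 26 of 31 Pdk4 lines are blue.

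The mitochondrial genes as a group did not share a direction over time. Of the 15, 12 were above zero in MC/water, 7 in MC/PB, 5 in DEN3/PB, 7 in DEN30/PB, 7 in TAA/PB, 10 in MP/PB and 3 in APAP/PB. The medians ran from -0.11 in APAP/PB to 0.08 in MC/water, where all genes had 0.01 or less in size. Cyp4a1 had a time difference of 0.36 ± 0.20 in MC/water, and Cpt1a of 0.11 ± 0.33 in MC/water and -0.19 ± 0.33 in MC/PB, none of which passed in limma. The probe set shared by Cyp4a2 and Cyp4a3 gave 0.66 in MC/water. Angptl4 had 0.87 ± 0.52 in MC/water and -1.23 ± 0.52 in APAP/PB, and its 5w signals in APAP/PB of 5312, 1304, 1175 and 2251 overlapped those at 10w.

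With the animal as a block the members called numbered 1 in MC/water, 3 in MC/PB, 4 in DEN3/PB, 2 in DEN30/PB, 4 in TAA/PB, 2 in MP/PB and 5 in APAP/PB, against 1.42%, 4.84%, 8.8%, 1.46%, 6.01%, 4.91% and 6.34% of all genes. Besides those above these were Fgf21 in DEN3/PB, Hadh in TAA/PB and APAP/PB, and Acsl1 and Acadvl in APAP/PB (limma adjusted p = 0.0378, 0.0271, 0.000982, 0.025 and 0.0278).

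Among the 64 tested other genes of the pathway, all calls over time in the fit without the animal block were lower. They numbered 0 in MC/water and DEN30/PB, 1 in MC/PB, TAA/PB and MP/PB, 2 in APAP/PB and 3 in DEN3/PB. The shares of all genes called in that fit are given where these comparisons are introduced. Pex16, a membrane protein needed to build peroxisomes, fell over time in 5 treatments, with differences of -0.42 in MC/PB, -0.40 in DEN3/PB, -0.41 in TAA/PB, -0.28 in MP/PB and -0.33 in APAP/PB. G0s2, an inhibitor of the lipase Atgl, fell in DEN3/PB and APAP/PB (-1.31 and -1.27), and Amacr, a peroxisomal racemase, in DEN3/PB (-0.73, limma adjusted p = 0.0471). Over the same interval 4 of 5 markers of sinusoidal endothelium summed to less at 10w than at 5w, 6732 to 8042 against 9037 to 10649.6 in MC/PB and 7489 to 8871 against 9898 to 10364 in MC/water. All 4 were at or above 100 on all 62 arrays. The sums were also lower without overlap in DEN30/PB (7550.3 to 9005 against 9006 to 10899), TAA/PB (6152 to 8312 against 8385 to 10059.6) and APAP/PB (6636 to 7817 against 9170.1 to 9569.9). Stellate cell markers, 6 of 6, summed to less at 10w in TAA/PB (8899 to 10013 against 10770.1 to 13317) and MP/PB (7238 to 10428 against 10790.4 to 12932). Biliary markers summed to more at 10w in DEN3/PB (1484 to 1998 against 1099.8 to 1392) and APAP/PB (1779.6 to 2324 against 1277 to 1758). The adipocyte sum, mostly Cfd, was also higher at 10w in APAP/PB (623 to 727 against 497 to 578). The part of these markers in the results was not tested.

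Within groups, members that varied together from liver to liver were sought after centring on each group and array set, over 31 livers a week. Among 528 pairs a week, 78 at 5w and 39 at 10w had r above 0.5, and 5 pairs did at both. The livers of a week share the array scaling, and none of the 1056 correlations passed a Benjamini-Hochberg adjustment of its permutation p over all of them, so the values are a description. Fabp1 and Acsl1, which bind and activate fatty acids, had r = 0.90 and rho = 0.88 at 10w (permutation p = 0.00017 and 0.00046, adjusted 0.0845 and 0.097), and r = 0.88 without the 2 livers farthest from the median of Fabp1. At 5w they had r = 0.70 and rho = 0.55 (permutation p = 0.0474 and 0.0681, adjusted 0.319 and 0.394; r = 0.65 without 2 livers), with r = 0.82 in set 1 and 0.27 in set 2. The other 4 pairs were Cpt1a with Decr1, Cpt1a with Crat, Eci1 with Pex11a and Cyp4a8 with Vnn1.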

How the data were processed

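The authors deposited linear signal intensities, and the submitters' processing notes name MAS5 5.0 as the software. The array model and the target of the scaling were not given in the sources used. The 2% trimmed mean was 500.231 to 500.272 on every array, and the number of arrays limits the precision. Of 31099 probe sets, 57 were controls, 20826 had 1 gene symbol, 436 several and 9780 none. Signals were taken to log2 after adding 25. Probe sets at 100 or more on at least 4 arrays of a fit were kept, 1 per gene, by highest mean. Contrasts were fitted in limma 3.58.1 (R 4.3.3; lmFit, eBayes with trend), two-sided, on the 31 arrays of a week or, between weeks, on all 62. The members, lists and naming rule were chosen with earlier results of these data known. The rule named every member past the threshold and a fixed set of 12 whether or not they passed, with ends of ranges; others were named after their values were seen. Symbols are those of the probe annotation, and the fits were tested on simulated data.

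The series text says that both weeks came from the same animals. In 31 pairs of the same treatment and number, residuals correlated at 0.211 to 0.394, and 62 of 62 arrays correlated best with their own number. Alternatives changed the offset, the filter, the normalization, the probe set rule, the groups in the fit, the array set and the block, and left out each array in turn.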

Additional observations from a re-analysis of the deposited data

Results flagged for a closer look

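Among 154 groups of arrays over 11 genes, 4 held an array far from the others of its group by Dixon's criterion, and chance gives about 1 in 20. Acadm in APAP/PB at 5w read 15993 on replicate 4, against 17253 to 17414 on the others. Acadm in MC/water at 10w read 24211 on replicate 1, against 19446 to 19971. Cyp4a1 in MC/PB at 10w read 2760.1 on replicate 3, against 4246 to 4283, and without this array the phenobarbital change at 10w was -0.62. Hadh in MC/water at 5w read 14198 on replicate 4, against 15248 to 15341.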

How the results depend on the processing

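Among 186 differences of 11 members recomputed under each alternative, 3259 values kept their side of the threshold. Of the rest, 77 lost the call and 12 gained one, and 0 called values changed sign. Most of the 3259 belong to differences that were not called in the main fit. Only called differences could lose a call, so 77 against 3259 does not measure how stable the calls were. For single called differences the losses ran from 1 of 19 alternatives (Cyp4a8 over time in DEN3/PB) to 15 of 19 (Cyp4a8 over time in MP/PB). Members called in TAA/PB, DEN3/PB, APAP/PB and MC/PB over time, and with phenobarbital, stayed within 1.5 times of the counts above under quantile normalization and with the array set as a block. With all probe sets or with no filter, 0 members were called for DEN30 at 5w and 1 for MP/PB over time, and 1 with no offset. In a fit of the compared groups alone 0 were called for DEN30 at 5w and 1 for APAP/PB over time, and some unchanged counts held other genes: with phenobarbital at 5w the 1 gene was Pdk4 and not Cd36, at 10w 2 of 4 calls were shared, and over time in DEN3/PB 1 of 2 (limma adjusted p = 0.0303 for Pdk4 and 0.0568 for Cd36).

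Within array set 1, with 2 or 3 arrays a group, 0 were called for phenobarbital at 5w, DEN30 at 5w and the time comparisons of MC/PB, TAA/PB, MP/PB and APAP/PB, and 1 each for phenobarbital at 10w and DEN3/PB over time. Within set 2, 0 were called for phenobarbital at either week, DEN30 at 5w, DEN3/PB and MP/PB over time, and 1 each for TAA/PB and APAP/PB. Fewer arrays entered these fits, and the differences within the sets stand in the text.

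With the replicate number as a block within a week, 0 members were called for DEN30 at 5w, and the counts of the other 11 comparisons within a week did not move by over 1.5 times. With the animal as a block over time, 1 was called in MC/water, 3 in MC/PB, 4 in DEN3/PB, 2 in DEN30/PB, 4 in TAA/PB and 5 in APAP/PB.

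Leaving out each array in turn gave 0 to 1 members for phenobarbital at 5w, 1 to 4 at 10w, 0 to 1 for DEN30 at 5w, and over time 0 to 1 in MC/PB, 1 to 2 in DEN3/PB, 0 to 1 in DEN30/PB, 2 to 4 in TAA/PB, 1 in MP/PB whichever array was left out, and 1 to 2 in APAP/PB. Genes near or under a signal of 100, such as Ppara, Acot1 and Fgf21, are limited by their low signal.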
